A study of Litchi chinensis with 30 samples.

Results

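The MIKC* genes of litchi, the MADS-box transcription factor genes whose Arabidopsis relatives are best known from pollen, were followed in whole flowers over 5 stages of development in both sexes. Members were the genes whose Swiss-Prot annotation in the deposited table named the MADS-box protein AGL30, AGL65, AGL66, AGL67, AGL94 or AGL104. This gave 12 of the 37234 genes of the table. RNA sequencing was done on functionally female flowers (F1 to F5) and functionally male flowers (M1 to M5) of the cultivar Feizixiao, with 3 replicate libraries in each of the 10 groups and no treatment. Stages 1 to 3 were buds of increasing size, stage 4 was half-bloom and stage 5 was full-bloom, per the study's methods. Per the study's methods the flowers were collected in triplicate in an orchard, from sides of the tree that faced different ways. Neither the methods nor the labels say whether the replicates of a group came from separate trees, so the p-values given here measure the spread between these libraries, which may be technical. Library totals lay between 27433038 and 43760285 counts.

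MADS-box proteins bind DNA through a conserved MADS domain, and the plant MIKC type carries in addition an intervening, a keratin-like and a C-terminal region. Classic MIKC proteins specify floral organs. The MIKC* proteins form a separate lineage with a longer intervening region and fall into an S clade (AGL66, AGL67 and AGL104 in Arabidopsis) and a P clade (AGL30, AGL65 and AGL94). In Arabidopsis, a protein of one clade pairs with a protein of the other, and the pairs act in late pollen maturation and pollen tube growth, while AGL67 is known from seeds. Litchi trees bear flowers that function as female or as male. The female flowers carry stamens that do not release pollen, so both kinds of flower hold anther tissue.

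Of the 12 members, 7 were annotated to the S clade, with 6 AGL104-type genes and 1 AGL66-type gene. The other 5 were annotated to the P clade, with 2 AGL30-type and 3 AGL65-type genes. No gene carried the AGL67 or the AGL94 annotation. The study's own naming (LcMADS) covered 11 of the members. LcMADS74 and LcMADS84, which the study also places among MIKC* genes, lay outside the annotation rule and were not followed here. Both had an AGL65 protein, of the P clade, as their match in the NR protein database. The members may therefore not cover the P clade in full. In the NR database LcMADS27 and LcMADS78, both AGL104-type by Swiss-Prot, matched an AGL66 protein. LcMADS87, the AGL66-type gene, matched an AGL104 protein there. The types within the S clade are thus those of Swiss-Prot alone. Each member had 1 entry at its locus, and gene positions were not analysed here.

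Counts were found in 8 members, and 4 of these reached a group mean of at least 1 FPKM (fragment counts scaled to transcript length and library depth). They were LcMADS46 (LITCHI010419), LcMADS47 (LITCHI010424) and LcMADS27 (LITCHI001394), all AGL104-type, and LcMADS93 (LITCHI005193), which is AGL30-type. The MADS box, the first 180 bases of the coding sequence given with the study, is shown for these genes because the results turn on them. Letters in capitals differ from LcMADS46. LcMADS47 has the same 180 bases as LcMADS46 and is not repeated.
LcMADS46: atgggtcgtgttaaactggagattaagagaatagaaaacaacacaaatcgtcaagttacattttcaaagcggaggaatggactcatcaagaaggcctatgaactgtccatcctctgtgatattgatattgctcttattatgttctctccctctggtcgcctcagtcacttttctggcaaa
LcMADS27: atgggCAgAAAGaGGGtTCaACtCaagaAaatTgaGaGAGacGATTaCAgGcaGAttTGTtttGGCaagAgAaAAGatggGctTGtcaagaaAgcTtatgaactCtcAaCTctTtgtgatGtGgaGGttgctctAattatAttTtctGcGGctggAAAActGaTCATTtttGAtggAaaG
LcMADS93: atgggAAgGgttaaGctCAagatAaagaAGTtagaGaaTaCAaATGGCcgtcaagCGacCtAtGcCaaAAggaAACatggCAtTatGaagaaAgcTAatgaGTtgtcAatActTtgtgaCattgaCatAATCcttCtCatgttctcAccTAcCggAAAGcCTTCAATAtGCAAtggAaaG
LcMADS27 differed from LcMADS46 at 74 of these bases and kept 55% of the 60 encoded residues. LcMADS93 differed at 72 bases and kept 63.3% of the residues. LcMADS27, AGL104-type by Swiss-Prot, therefore was no closer to LcMADS46 in this box than the AGL30-type LcMADS93 was.

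LcMADS46 and LcMADS47 were near-identical copies. Over the 309 coding bases that could be aligned in the letters at hand (the first 399 bases of each gene), 308 were the same, and the 1 difference was T273C, counted from the first base of the coding sequence with the base of LcMADS46 first. LcMADS46 held a stretch of 90 bases, or 30 codons, that LcMADS47 lacks, at bases 289 to 378. It is shown in capitals with the neighbouring bases in lower case, because reads over it can be told apart.
LcMADS46: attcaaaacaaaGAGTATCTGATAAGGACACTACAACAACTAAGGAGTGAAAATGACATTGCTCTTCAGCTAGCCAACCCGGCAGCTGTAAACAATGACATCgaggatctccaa
The bases GAG open this stretch and also follow directly after it, so its exact borders are not fixed by the alignment. The predicted proteins have 324 and 294 residues, and 293 of the 294 aligned residues were the same. Reads from the shared part may have been divided between the copies, so the group comparisons of either gene were also fitted on their summed counts.

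The clearest change was at the step from the largest buds to half-bloom in male flowers. Across the 27854 genes that passed the filter on low counts, fitted with the edgeR quasi-likelihood test on all 30 libraries, 5 members could be tested (LcMADS27, LcMADS36, LcMADS46, LcMADS47 and LcMADS93). A gene was called at a false discovery rate (FDR) under 0.01 and at least a 2-fold change. From M3 to M4, 3 members rose, where 7.73% of all tested genes rose, and 1 fell, where 12.6% of all fell. Of the 3, LcMADS46 and LcMADS47 are near-identical copies. The 1 that fell, LcMADS27, had most of its counts at stage 3 and so passed the filter mainly through that stage.

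LcMADS46 had 0.115, 0 and 0 FPKM in the 3 M3 libraries. At half-bloom (M4) it had 2.204, 4.08 and 4.23 FPKM, and at full-bloom (M5) 4.41, 3.54 and 5.72. The functionally female flowers had 0.203, 0.551 and 0.351 FPKM at half-bloom (F4) and 0.732, 0.242 and 1.05 at full-bloom (F5). Every M4 and M5 library lay above every F4 and F5 library. The rise from M3 to M4 was 6.58 ± 1.04 on the log2 scale (SE, edgeR FDR 3.14e-05), or 10.67 without M3 replicate 1, the only M3 library with a count.

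LcMADS47, its near-identical copy, had 0.368, 0.103 and 0.178 FPKM in M3, then 3.41, 4.11 and 5.995 in M4 and 4.63, 4.00 and 6.25 in M5. The F4 libraries had 0.285, 0.587 and 0.484 FPKM and the F5 libraries 0.724, 0.336 and 0.862. As with LcMADS46, all male libraries of these stages lay above all female ones. The log2 rise from M3 to M4 was 4.46 ± 0.46 (SE, edgeR FDR 4.19e-08), a 22.0-fold change.

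LcMADS93, an AGL30-type gene and thus of the other clade, had counts in all 30 libraries. Its 15 female libraries spanned 1.70 to 3.59 FPKM, and the M1, M2 and M3 libraries 1.44 to 2.50 FPKM. In M4 it had 5.81, 5.23 and 5.65 FPKM and in M5 5.83, 4.53 and 6.08. The 6 libraries of half-bloom and full-bloom male flowers therefore lay above all others. The log2 rise from M3 to M4 was 1.35 ± 0.20 (SE, edgeR FDR 4.47e-06), or 2.55-fold.

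The order of the group means of LcMADS93 put M4 (5.56 ± 0.30 FPKM, SD, n = 3) and M5 (5.48 ± 0.83) first. F4 (2.87 ± 0.27), F5 (2.73 ± 0.74), F1 (2.67 ± 0.71), F2 (2.37 ± 0.65), M3 (2.35 ± 0.19), F3 (2.25 ± 0.32), M1 (2.05 ± 0.18) and M2 (1.74 ± 0.28) followed. Apart from the gap between M5 and F4, M1 and M2 were the only neighbours whose means differed by more than the larger of their SDs, and that step was not called (FDR 0.477). LcMADS46 and LcMADS47 had the same first places, with M5 (4.55 ± 1.10 and 4.96 ± 1.16 FPKM) and M4 (3.50 ± 1.13 and 4.503 ± 1.34) ahead of F5 (0.673 ± 0.405 and 0.641 ± 0.273). M4 and M5 did not differ beyond their SDs in any of the 3 genes.

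**Figure D1:**
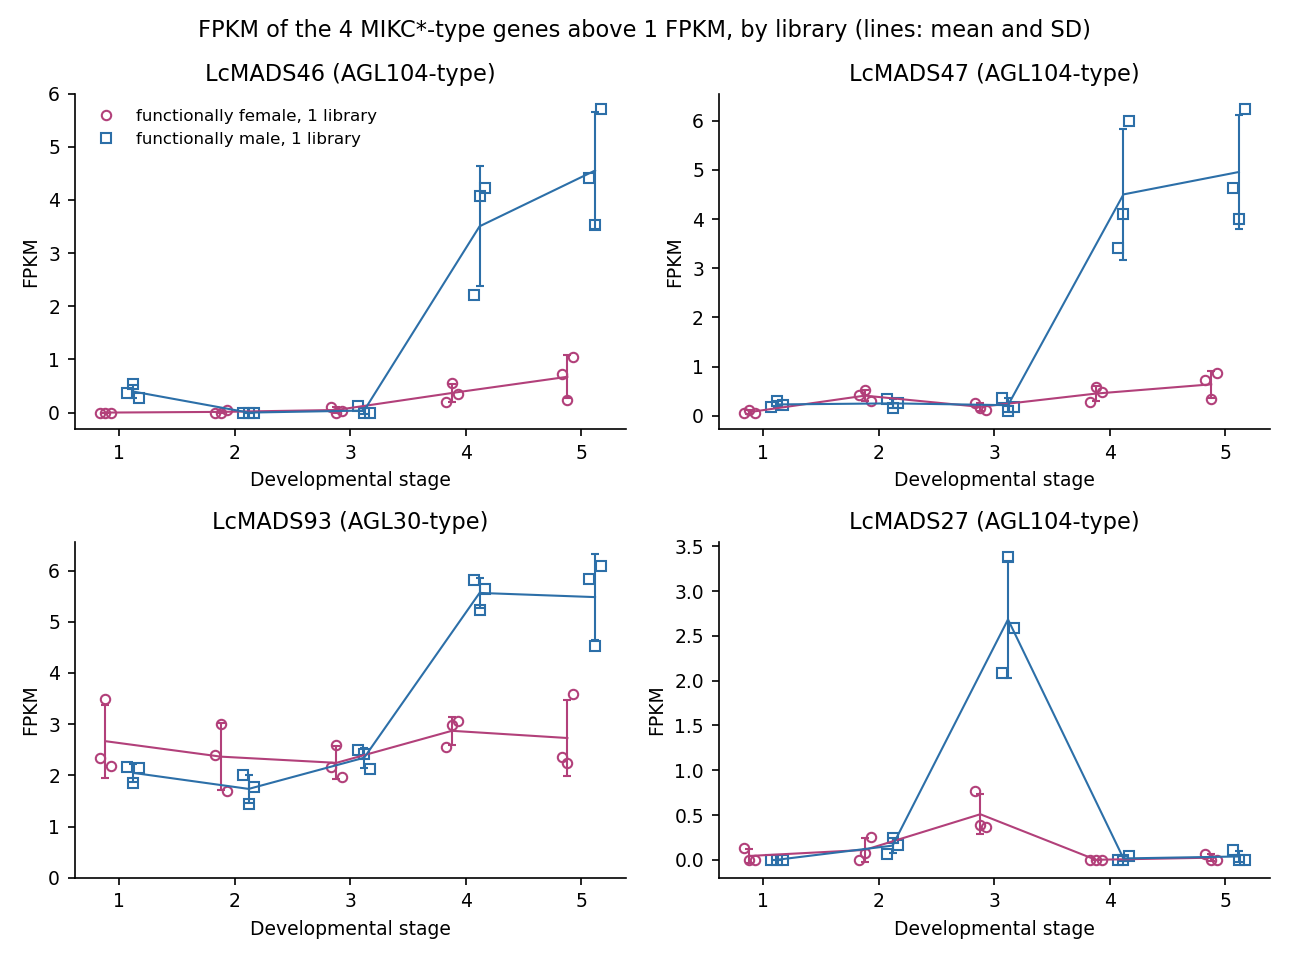
FPKM of LcMADS46, LcMADS47, LcMADS93 and LcMADS27 (vertical axes) at stages 1 to 5 (horizontal axes). Circles are female and squares male libraries, lines join the group means and bars are the SD (n = 3). In the first 3 panels the male libraries of stages 4 and 5 stand above all others, and LcMADS27 peaks in M3 at 2.68 FPKM.

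Functionally female flowers were compared with functionally male flowers at each stage. At stage 4, 3 of the 5 tested members were lower in female flowers and none higher, where 7.40% of all tested genes were lower and 9.55% higher. The log2 fold change of female against male was -3.43 ± 0.84 for LcMADS46 (edgeR FDR 0.00242), -3.49 ± 0.44 for LcMADS47 (FDR 9.66e-07) and -1.17 ± 0.19 for LcMADS93 (FDR 3.33e-05). The AGL104-type copies were thus 10.8-fold and 11.3-fold lower and the AGL30-type gene 2.25-fold lower. The call of LcMADS46 was lost without F4 replicate 1 (FDR 0.0162) or F4 replicate 3 (FDR 0.0121). LcMADS93 fell short of 2-fold when libraries were scaled by size alone (-0.95), since that scaling moves the median of all genes by 0.21 at this stage and by 0.47 at stage 5. On log2(FPKM + 1), limma put LcMADS93 at -0.76 (FDR 0.0002) at stage 4 and -0.81 (FDR 6.38e-05) at stage 5, under 2-fold at both.

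At stage 5 the same 3 members were lower in female flowers, where 11.6% of all tested genes were lower and 17.6% higher. The log2 fold changes were -3.21 ± 0.82 for LcMADS46 (edgeR FDR 0.0024), -3.41 ± 0.43 for LcMADS47 (FDR 4.18e-07) and -1.48 ± 0.20 for LcMADS93 (FDR 7.06e-07). LcMADS46 was not called without F5 replicate 2 (FDR 0.0154). The summed counts of the near-identical copies gave -3.47 at stage 4 (FDR 4.34e-06) and -3.31 at stage 5 (FDR 2.88e-06), so the pair as a whole was lower in female flowers. How far the separate call of LcMADS46 rests on the division of reads was not tested. In whole flowers, fewer pollen cells and less RNA per cell cannot be told apart.

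**Figure D2:**
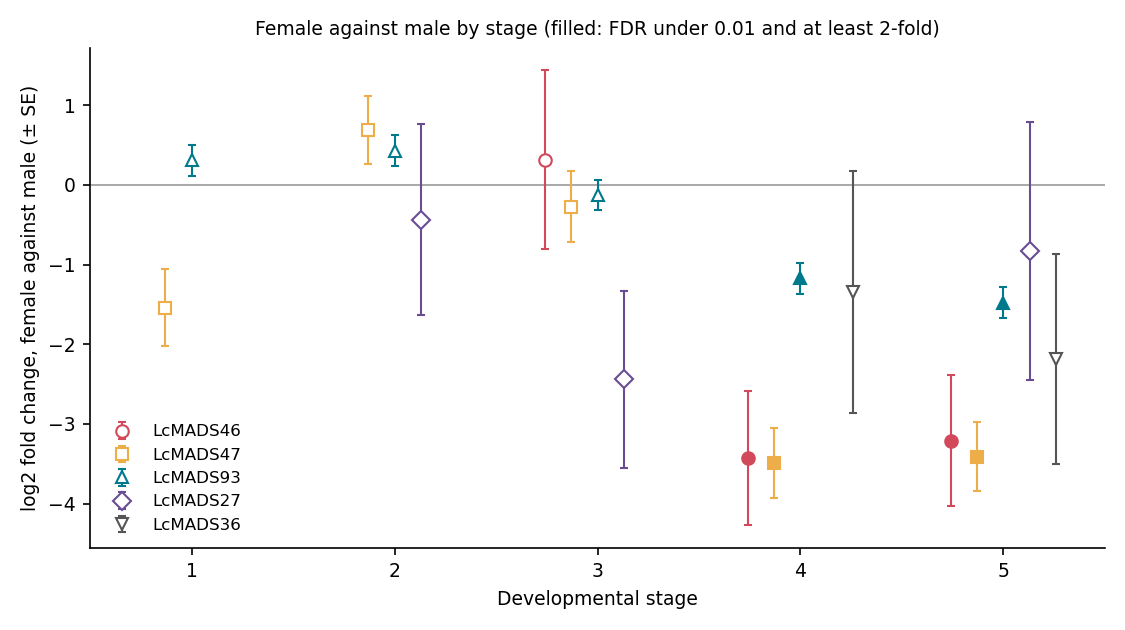
Log2 fold change of female against male flowers (vertical axis, bars ± SE) at each stage (horizontal axis) for the tested members. Filled symbols passed the FDR and 2-fold thresholds, and points are drawn only where both sexes had counts. At stages 4 and 5 LcMADS46 and LcMADS47 lie between -3.21 and -3.49 and LcMADS93 at -1.17 and -1.48.

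The same step was then followed in female flowers. From F3 to F4 the log2 change was 2.84 ± 0.95 for LcMADS46 (edgeR FDR 0.0265), 1.24 ± 0.44 for LcMADS47 (FDR 0.0304) and 0.31 ± 0.19 for LcMADS93 (FDR 0.239), and none of these passed the threshold. The difference between the sexes in this step was not tested. The summed counts of the copies did pass it, at 1.79 (FDR 0.00629), and DESeq2 also called LcMADS46 (2.90, FDR 0.00183). From F1 to F5, 2 members, the near-identical copies, were called higher, where 7.44% of all tested genes were. LcMADS47 rose by 2.84 ± 0.47 on the log2 scale (FDR 4.52e-05). LcMADS46 had no count in F1 and 129 counts over the F5 libraries, which is at least 35.2-fold higher against a floor of 3 counts over the group.

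From M1 to M5, 4 members were called higher, where 15.3% of all tested genes were. The log2 rises were 4.71 ± 0.47 for LcMADS47 (edgeR FDR 6.61e-09), 3.82 ± 0.86 for LcMADS46 (FDR 0.000653) and 1.74 ± 0.20 for LcMADS93 (FDR 5.58e-08). The fourth was LcMADS36, which could pass the filter on low counts only through its counts at stages 4 and 5. Its call is therefore not weighed against the 15.3%, and LcMADS46 and LcMADS47 are near-identical copies. Over the same interval LcMADS93 changed by -0.05 ± 0.19 in female flowers (FDR 0.864). The difference between the sexes in this change, tested as an interaction, was -1.79 ± 0.27 for LcMADS93 (FDR 1.14e-05), where 7.84% of all tested genes had a lower change in female flowers. LcMADS47 did not pass that test (-1.87 ± 0.65, FDR 0.0216), nor did LcMADS46 (4.22 ± 1.82, FDR 0.0669), whose sign turned with the summed counts of both copies (-0.29). From stage 4 to stage 5 no member was called by edgeR in female flowers, where 1.22% of all tested genes were called in either direction, nor in male flowers, where 10.6% were. At an unadjusted p under 0.05 there was likewise 0 of 5 in each sex, and limma on log2(FPKM + 0.1) called 1, LcMADS36, in male flowers.

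LcMADS27, also AGL104-type, had its highest level at stage 3, before the stages at which LcMADS46 and LcMADS47 were highest. It had 94, 166 and 120 counts in the M3 libraries (2.09, 3.38 and 2.59 FPKM) and 37, 19 and 17 counts in the F3 libraries (0.768, 0.389 and 0.369 FPKM). In the other 24 libraries it had between 0 and 12 counts. All 3 M3 libraries lay above all 3 F3 libraries, and all F3 libraries lay above those of every other group except M3.

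The difference between the sexes at stage 3 was -2.44 ± 1.11 on the log2 scale and did not pass the edgeR test (FDR 0.225), where 0.761% of all tested genes were called in either direction. By limma it did pass, at -1.28 on log2(FPKM + 1) (FDR 9.45e-08) and -2.23 on log2(FPKM + 0.1) (FDR 0.00197). The exact permutation test, two-sided, gave p = 0.1, which is the smallest p that 3 against 3 allows. No member was called by edgeR at this stage, 1 of 5 had an unadjusted p under 0.05 (share of all genes not computed), and DESeq2 called 0.

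The fall after stage 3 was called in both sexes. LcMADS27 had 380 counts over the M3 libraries and 2 over M4, a ratio of 173 with an exact 95% counting interval of 47.6 to 1440 (edgeR FDR 0.000747). Both M4 counts lay in M4 replicate 3, and the fitted log2 change of -7.11 became -9.91 without it. It had 73 counts over F3 and none over F4, at least 23.6-fold lower (edgeR FDR 0.00437), where 7.51% of all tested genes fell. LcMADS27 passed the filter on low counts mainly through stage 3. The calls of both falls therefore describe its counts, add no support and are not weighed against the shares of all genes. The call in female flowers was lost without F3 replicate 1 (FDR 0.0128) and without any 1 of the F4 libraries (FDR 0.0166 to 0.0185). The rise from M2 (4, 10 and 8 counts) to M3 was 3.99 ± 1.21 (FDR 0.0249). It missed the threshold in the fit of all libraries, where 6.23% of all tested genes were called in either direction, and passed it when only these groups were fitted (4.00, FDR 0.000773). That step had no called member by edgeR, 3 of 5 with an unadjusted p under 0.05, and none by DESeq2. From F2 to F3, where 2.51% of all tested genes were called in either direction, edgeR and DESeq2 likewise called 0 members and 1 of 5 had an unadjusted p under 0.05. The share of all genes at that unadjusted p was not computed, so these counts are not read as a result about the members.

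At stages 1 and 2 the members had few counts, apart from LcMADS93. LcMADS46 had 18, 27 and 15 counts in M1 (0.371, 0.535 and 0.282 FPKM) and none in any F1 library, so it was at least 20.6-fold lower in female buds (edgeR FDR 0.0046), where 0.923% of all tested genes were lower. The call was lost without any 1 of the 6 libraries (FDR 0.0105 to 0.0244). LcMADS46 again had no count in M2, at least 20.8-fold lower than in M1 (FDR 0.00355), where 0.966% of all tested genes fell. This call was lost without M1 replicate 2 (FDR 0.012), without any 1 M2 library (FDR 0.0176 to 0.0196) and with the summed counts of both copies (-1.40, FDR 0.0888), and it narrowly missed when M1 and M2 alone were fitted (FDR 0.0103).

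LcMADS47 had 3, 6 and 3 counts in F1 and 21, 24 and 14 in F2, a log2 rise of 2.31 ± 0.48 (edgeR FDR 0.0022), where 2.33% of all tested genes rose. The call was lost without F1 replicate 1 (FDR 0.0154), F1 replicate 3 (FDR 0.0197) or F2 replicate 2 (FDR 0.0124), and when F1 and F2 alone were fitted (FDR 0.0655). At stage 2 the sexes had no called member by edgeR or DESeq2, where 0.535% of all tested genes were called in either direction by edgeR. At an unadjusted p under 0.05 there was 1 of 5 (share of all genes not computed). That one was LcMADS93, at 0.43 ± 0.19.

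The counts assigned to the near-identical copies did not keep the same ratio at all stages. At stages 4 and 5 every library of either sex had 41.1% to 56.5% of the pair's counts on LcMADS46, with 590 counts against 702 on LcMADS47 at stage 4 and 795 against 794 at stage 5. At stage 2 LcMADS46 had 2 counts, both in 1 F2 library, and LcMADS47 had 96 over the 6 libraries. In M1 the share of LcMADS46 was 64.3% ± 5.93 (SD, n = 3), with 60 counts against 33, and in F1 it was 0 of 12. The 3 M1 libraries thus lay above all stage 2 and stage 3 libraries in this share, which ran from 0% to 30% there. Counts per library were low at stages 1 to 3, and the Wilson intervals are accordingly wide. These intervals cover counting error only, as reads are not independent molecules. They do not cover how reads from the shared part were divided between the copies, which was not tested.

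**Figure D3:**
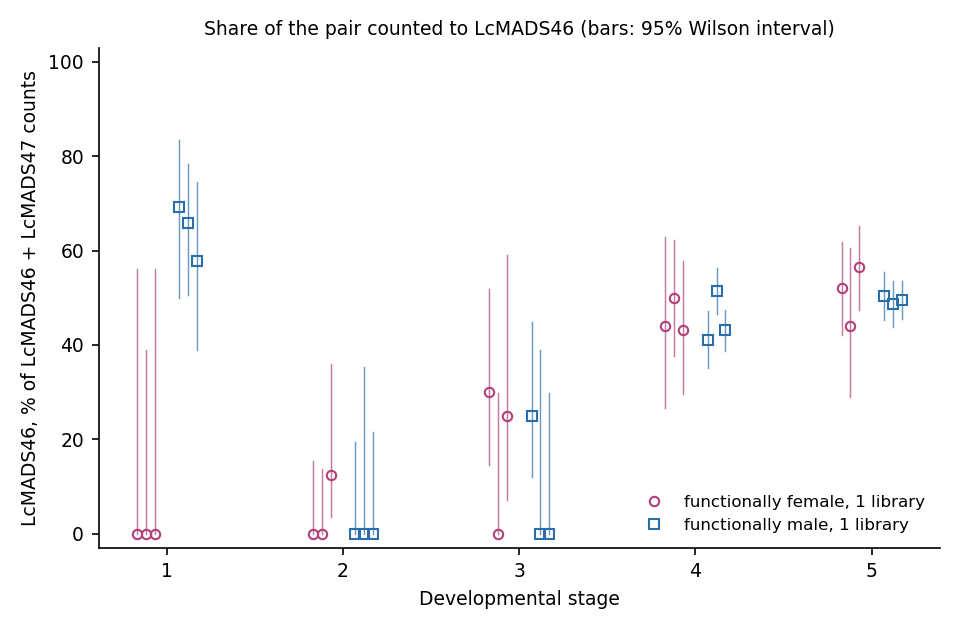
Share of the summed LcMADS46 and LcMADS47 counts that fell on LcMADS46 (vertical axis, percent) in each library at stages 1 to 5 (horizontal axis). Circles are female and squares male libraries, and bars are 95% Wilson intervals. The shares lie between 41.1% and 56.5% at stages 4 and 5, at 57.7% to 69.2% in M1, and between 0% and 30% at stages 2 and 3.

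LcMADS36 (LITCHI003297, AGL104-type) had no count in any of the 18 libraries of stages 1 to 3. It had 0, 6 and 0 counts in F4, 0, 4 and 9 in M4, 4, 4 and 24 in F5 and 22, 55 and 7 in M5, where its mean was 0.641 FPKM. The sexes overlapped at both stages, and the difference at stage 5 was -2.19 ± 1.32 on the log2 scale (edgeR FDR 0.181). Against M1, which had none, M5 was at least 28.3-fold higher over 84 counts (FDR 0.00636). LcMADS36 passed the filter on low counts only through stages 4 and 5, so this call describes the counts and adds no support. That call was lost without any 1 of the M1 libraries (FDR 0.0183 to 0.0185), without M5 replicate 1 (FDR 0.0119) or M5 replicate 2 (FDR 0.0189), and under DESeq2 (FDR 0.0302).

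The other 7 members did not pass the filter on low counts and carry no test in the main fit. LcMADS78 (LITCHI006970, AGL104-type) had 91 counts over 15 libraries, at most 17 in 1 library, and its highest group mean was 0.238 FPKM in M3. Exact permutation tests of LcMADS78 between the sexes gave p of 0.3 to 0.7 over the stages. LcMADS87 (LITCHI021201, the AGL66-type gene) had 45 counts over 9 libraries, of which 18 lay in M2 and 15 in F2. LcMADS4 (LITCHI017400, AGL30-type) had 35 counts in 7 libraries. All of these were female, from F2 to F5, with at most 10 counts in 1 library. The absence of LcMADS4 from male flowers was not tested in the main fit and rests on few counts.

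No library had a count for the AGL65-type genes LcMADS3 (LITCHI017390), LcMADS5 (LITCHI017401) and LITCHI017399, which has no LcMADS name, or for the AGL104-type LcMADS86 (LITCHI021200). A count of 0 over the 3 libraries of a group allows up to 3 counts, which corresponds to 0.0243 to 0.0308 CPM (counts scaled to library size) over the groups. Among the members, LcMADS93 was therefore the only P-clade gene above 1 FPKM, beside LcMADS27, LcMADS46 and LcMADS47 of the S clade. The levels of LcMADS74 and LcMADS84, matched to AGL65 in the NR database, were not looked at.

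**Figure D4:**
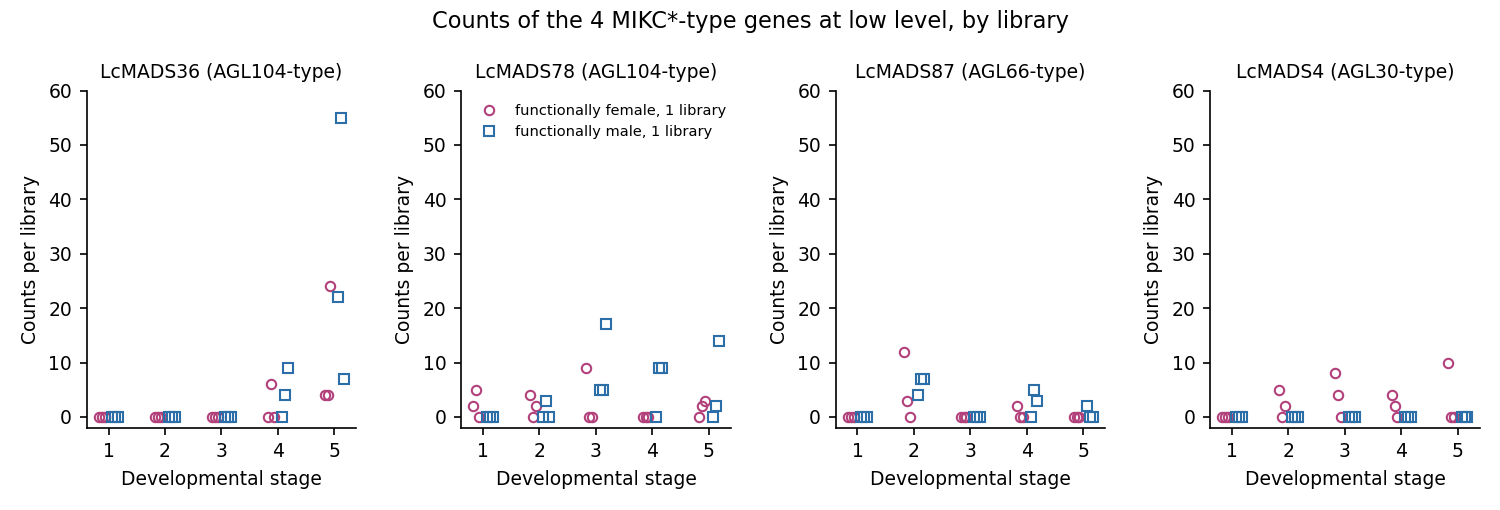
Counts per library (vertical axes) of the low-level members LcMADS36, LcMADS78, LcMADS87 and LcMADS4 at stages 1 to 5 (horizontal axes). Circles are female and squares male libraries. LcMADS36 has counts at stages 4 and 5 alone, up to 55 in an M5 library, and LcMADS4 has counts in female libraries alone, up to 10.

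Genes of pollen and of the tapetum, the anther tissue that feeds young pollen and supplies its wall, were read beside the members from lists matched on annotation. Of 51 genes on the list for pollen tube growth, 43 were tested. From M3 to M4, 24 of the 43 rose and 2 fell, with a median log2 change of 2.08 beside -0.06 over all tested genes. At stage 4, 21 were lower in female flowers and 2 higher, with a median of -2.09 beside -0.02 over all genes. At stage 5, 23 were lower and 1 higher, with a median of -1.98 beside 0.03. Of all tested genes, 7.73% rose and 12.6% fell from M3 to M4. In female flowers 7.40% of all were lower and 9.55% higher at stage 4, and 11.6% lower and 17.6% higher at stage 5. Calls in the direction of the 3 members were thus frequent among pollen genes at the stages where these members differed between the sexes.

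The list summed to 635 to 800 FPKM in M4 and 739 to 1090 in M5. It summed to 279 to 340 FPKM in F4 and 310 to 455 in F5, and 3 of its 51 genes had no count anywhere. A LAT52 gene (LITCHI013059), which codes for a secreted protein of tomato pollen in the species where it was named, had 7.75 ± 2.35 FPKM in M3, 199.9 ± 15.2 in M4 and 51.1 ± 14.2 in F4 (SD, n = 3). Values of the other marker genes are means of 3 libraries. A second LAT52 gene (LITCHI012895) had 2.79, 65.2 and 10.04 FPKM in these groups. A proton pump gene annotated as the plasma membrane ATPase 8 (LITCHI016279) had 2.10, 108 and 11.1 FPKM, and a calcium pump annotated as ATPase 8 (LITCHI016449) had 62.5, 95.8 and 56.4 FPKM. From M3 to M4, and between the sexes at stages 4 and 5, the list therefore moved with LcMADS46, LcMADS47 and LcMADS93. In female flowers it did not move with LcMADS93. There 14 of the 43 rose and 0 fell from F3 to F4, where 7.51% of all tested genes fell. From F1 to F5, 18 rose and 3 fell, where 7.44% of all tested genes rose. LcMADS93 changed by 0.31 (edgeR FDR 0.239) and -0.05 (FDR 0.864) on the log2 scale over these intervals. The part of the list in the members' differences was not tested.

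The same list also stood higher at stage 1 than at stage 2. In male flowers 9 of the 43 fell from M1 to M2 and 1 rose, and in female flowers 8 fell and 2 rose. Of all tested genes, 0.966% fell from M1 to M2 and 2.33% rose from F1 to F2. The LAT52 gene LITCHI013059 had 14.7 ± 8.13 FPKM in M1 and 0.226 ± 0.158 in M2, and 6.13 ± 0.27 in F1 and 0.093 ± 0.082 in F2 (SD, n = 3). In male flowers these values go with the counts of LcMADS46, which had 60 counts in M1 and 0 in M2. In female flowers they do not, since LcMADS46 had 0 counts in F1 and 2 in F2 and LcMADS47 rose from F1 to F2. Their part in the members' counts was not tested. When all stage 1 libraries were left out, an alternative chosen after seeing the data, the number of members called at later stages did not change.

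On a further list of 17 regulators of pollen, 10 were tested, and 0 of them rose and 2 fell from M3 to M4. Of all tested genes, 7.73% rose and 12.6% fell at that step. At stage 4, 1 was lower in female flowers, and at stage 5, 4 were, with none higher at either. Of all tested genes, 7.40% were lower and 9.55% higher at stage 4, and 11.6% lower and 17.6% higher at stage 5. DUO1 (LITCHI025392), which in Arabidopsis controls the male germ cells, had 18.6 ± 0.86 FPKM in M3, 30.6 ± 1.33 in M4 and 34.7 ± 2.22 in M5, against 18.9 ± 2.84 in F4 and 17.95 ± 5.63 in F5 (SD, n = 3). In F1, F2, F3, M1 and M2 its means lay between 14.5 and 18.9 FPKM. The gene of this annotation was thus found in every group, the smallest female buds included. MYB101 (LITCHI021301), which in Arabidopsis acts in pollen tubes, had its highest mean in M3 at 17.7 FPKM, as LcMADS27 did, with 8.83 in F3. The other named genes were MYB101 (LITCHI008954), highest in M1 at 32.2 FPKM, and a gene annotated as WRKY transcription factor 2 (LITCHI013493), which lay between 12.3 and 20.1 FPKM in all groups.

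Tapetum genes were at high levels at stages 2 and 3. Of 25 on the list, 23 were tested, and the mean sum was highest at stage 2 in both sexes, at 872 to 2100 FPKM in F2 and 1190 to 1410 in M2. It was 769 to 1150 FPKM in F3, 348 to 487 in M3 and 83.3 to 90.6 in F4. From M2 to M3, 8 of the 23 fell and 1 rose, and from F2 to F3, where the sums overlapped, 2 fell and 1 rose. Of all tested genes, 6.23% were called in either direction from M2 to M3 and 2.51% from F2 to F3. The polyketide synthase gene PKSA (LITCHI025403), which in Arabidopsis acts in making the pollen wall polymer, had 367 ± 163 FPKM in F2, 183 ± 54.7 in F3, 295 ± 25.02 in M2 and 54.1 ± 10.4 in M3 (SD, n = 3). CYP704B1 (LITCHI005203), of the same pathway, had 154, 116, 130 and 53.3 FPKM in these groups. The ligase genes of that pathway (LITCHI004645 and LITCHI004650) had 72.4 and 70.4 FPKM in F3 against 20.7 and 20.4 in M3. At stage 3 tapetum genes were thus higher in female flowers in mean while LcMADS27 was higher in male flowers, and 3 of the 23 were called higher in female flowers and none lower. Of all tested genes, 0.761% were called in either direction at this stage. The part of the tapetum genes in the level of LcMADS27 was not tested.

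Both kinds of flower also held transcripts of genes on a carpel and ovule list, and whole flowers do not show which organ these came from. The 13 genes of the carpel and ovule list summed to 690 to 792 FPKM in M4 and 451 to 482 in F4. CRABS CLAW (LITCHI005346), known from carpels and nectaries, made up most of this at 679 FPKM in M4 and 375 in F4. An AINTEGUMENTA gene (LITCHI007109), which in Arabidopsis promotes ovule growth, went the other way at 0.688 FPKM in M4 and 12.4 in F4. SPATULA (LITCHI006903) had 12.9 and 10.9 FPKM in M4 and F4, and the second AINTEGUMENTA gene (LITCHI005123) had 32.2 and 23.9. By calls at stage 4, female flowers had more of 4 of the 13 tested genes and less of 1, and at stage 5 more of 5 and less of 3. Of all tested genes, 9.55% were higher and 7.40% lower at stage 4, and 17.6% higher and 11.6% lower at stage 5. The part of the carpel and ovule list in the members' differences was not tested.

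**Figure D5:**
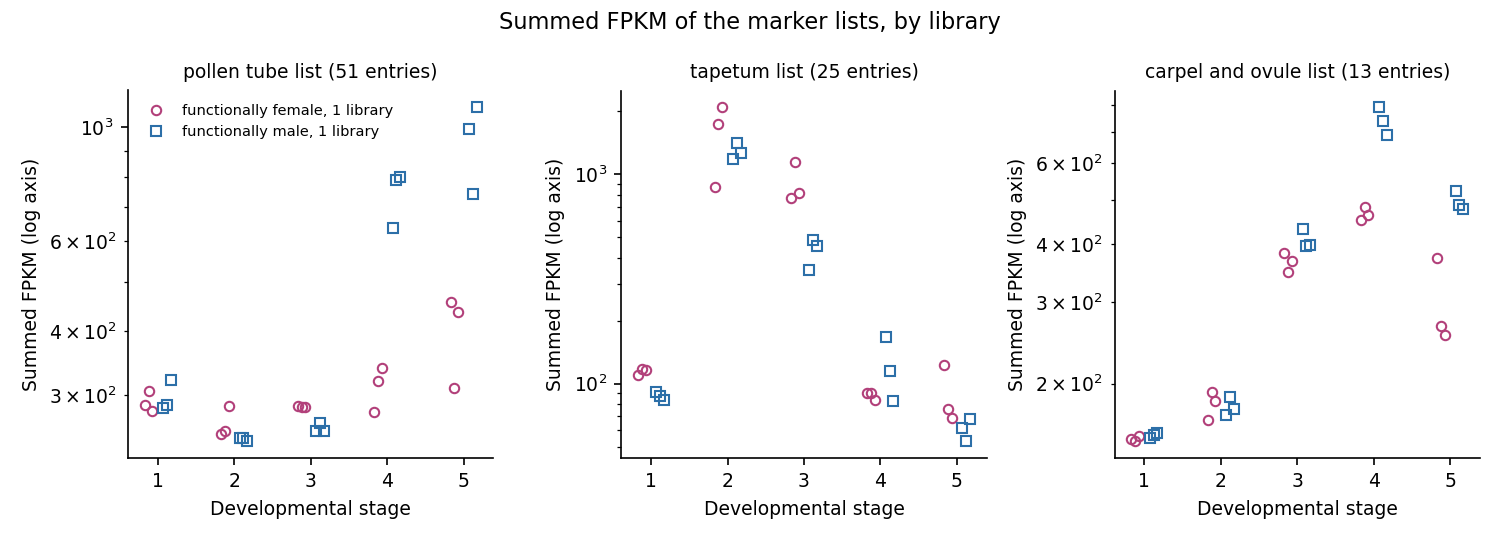
Summed FPKM (vertical log axes) of the pollen tube, tapetum and carpel and ovule lists in each library at stages 1 to 5 (horizontal axes). Circles are female and squares male libraries. The pollen tube list reaches 635 FPKM or more in M4 and M5 alone, and the tapetum list is highest at stage 2, at up to 2100 FPKM.

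Of the 5 tested members, LcMADS36, LcMADS46, LcMADS47 and LcMADS93 had their highest group mean in M4 or M5, and LcMADS27 alone in M3. Over the 30 libraries, log2 CPM of LcMADS46 and LcMADS47 had a Pearson r of 0.888, those of LcMADS47 and LcMADS93 of 0.892, and those of LcMADS46 and LcMADS93 of 0.802. LcMADS36 had r of 0.699 to 0.755 with these 3 genes, and LcMADS27 had r of -0.293 to -0.455 with the other 4. The libraries share their stages and sexes, so these values describe the groups and carry no p. LcMADS46 and LcMADS47 are near-identical copies that may share reads. LcMADS36 passed the filter on low counts only through stages 4 and 5, and LcMADS27 mainly through stage 3. The peaks of LcMADS36 and LcMADS27 therefore describe their counts and add no support.

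Among all 27853 other tested genes, those most like each member in pattern were looked up by the same r. For LcMADS46 they were a phosphatidylinositol 4-phosphate 5-kinase (LITCHI008646, r = 0.969), a GDSL esterase/lipase (LITCHI004797, r = 0.967) and an F-box/kelch-repeat gene (LITCHI031353, r = 0.962). For LcMADS47 they were a pair of pectate lyase genes (LITCHI025887 and LITCHI025891, r = 0.956 and 0.953), whose products cut the pectin of cell walls, and a Lea14 desiccation protectant homolog (LITCHI025782, r = 0.948). All 6 had their highest group mean in M5, between 4.53 FPKM for LITCHI031353 and 37.1 for LITCHI025887.

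LcMADS93 was most like a syntaxin gene (LITCHI004199, r = 0.936), a scopoletin glucosyltransferase gene (LITCHI010936, r = 0.934) and a threonine tRNA ligase gene (LITCHI021426, r = 0.931). The syntaxin, a protein of membrane fusion, had its highest mean in M5 at 27.2 FPKM and the glucosyltransferase in M4 at 112 FPKM. LcMADS27 was most like an acyl-activating enzyme gene (LITCHI003075, r = 0.937), a cytochrome P450 gene (LITCHI022158, r = 0.922) and LITCHI015987 (r = 0.920), which has no Swiss-Prot annotation. These 3 were highest in M3 like LcMADS27 itself, at 1.12, 3.58 and 2.08 FPKM.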

How the data were processed

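RNA was sequenced from whole flowers, 3 libraries in each of 10 groups. Per the submitters' processing notes HISAT2 2.0.4 and StringTie were used, and the study's methods add trimming, removal of ribosomal reads and Cufflinks. The genome build was not given in the sources used here. The authors deposited raw counts per gene and FPKM values, which they scaled to transcript length and depth. The authors' own comparison columns (adjusted p-values and fold changes) were not used.

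The main test was that of edgeR 4.0.16 under R 4.3.3 (filterByExpr, TMM factors from 0.774 to 1.16, 1 quasi-likelihood model of all libraries with a mean per group). This kept 27854 genes and removed 9380, and p-values were adjusted by Benjamini-Hochberg over all of them. The thresholds were FDR under 0.01 and 2-fold. Shares of all genes are given for edgeR calls at these thresholds alone. Counts of members by unadjusted p, limma or DESeq2 have no such share beside them and are not read as results about the members. Positive log2 fold changes mean higher in female flowers or at the later stage. SE was taken from the log2 fold change and its F statistic, as their ratio after a square root of F. The procedure was tested on simulated data for F5 against M5 alone, with changes in well-counted genes and a fixed spread. That simulation does not cover members with few counts. limma 3.58.1 and DESeq2 1.42.0 served as alternatives. Exact tests and Wilson intervals were computed with scipy 1.17.1.

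Members with a group mean of 1 FPKM are given by library and the 3 genes most like each are named. Of each marker list the 4 genes with the highest group mean are named. The list for pollen tube growth also took in some general ion pumps by their annotation. Members and lists were chosen with earlier results of these data known. Sequences are the coding sequences of the study's supplement, held in part, compared with Biopython 1.88.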

Additional observations from a re-analysis of the deposited data

Results flagged for a closer look

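LcMADS93, the AGL30-type gene, stood out because its change from stage 1 to stage 5 differed between the sexes in the test of that difference. The difference was -1.79 ± 0.27 on the log2 scale (edgeR FDR 1.14e-05), with a change of -0.05 ± 0.19 in female and 1.74 ± 0.20 in male flowers. All 3 M5 libraries lay above all 3 M1 libraries, while the F1 and F5 libraries overlapped. Without any 1 of the 12 libraries it lay between -1.98 and -1.60.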

How the results depend on the processing

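Here the values are numbers of members called, out of 5 tested. limma on log2(FPKM + 1) called 0 for the sexes at stage 1, F1 to F2, F3 to F4, M1 to M2 and F1 to F5 (1, 1, 1, 1 and 2 in edgeR). It called 1 for the sexes at stage 3 and for M2 to M3 (0 in edgeR), and 3 in the interaction of sex with stage (1 in edgeR). limma on log2(FPKM + 0.1) called 1 for the sexes at stage 3, F2 to F3, M2 to M3 and M4 to M5 (0 in edgeR), 2 for F3 to F4 and 2 in the interaction. Fitting only the groups compared gave 0 for F1 to F2 and M1 to M2 and 1 for M2 to M3. DESeq2 gave 2 for F3 to F4. Summing LcMADS46 and LcMADS47 gave 2 for F3 to F4, 0 for M1 to M2 and 1 for F1 to F5, with 1 gene fewer to test. Summing the entries of a locus gave 1 for M2 to M3. With 1 library left out, counts ran from 0 to 0 for the sexes at stage 1, and from 0 to 1 for F1 to F2, F3 to F4 and M1 to M2. They stayed within 1.5 times elsewhere. The replicate number as a block left all 16 counts as they were (3 at stage 4 and 3 at stage 5 between the sexes). Same-numbered libraries had a mean correlation of 0 in their deviations (-0.109 to 0.062), as did differently numbered ones (-0.091 to 0.134). No spread shared by number was thus seen on average, which cannot exclude a common tree or collection. The cause of these changes was not tested.

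Of 28 fold changes of single members, 450 of 507 alternative values kept direction and side of the threshold. The 3 that reversed were LcMADS46 in the interaction, at 4.22 in edgeR, -0.29 with summed copies, -1.26 on log2(FPKM + 1) and -0.45 on log2(FPKM + 0.1). F1 had 0 counts of this gene. At stages 1 and 2 no member but LcMADS93 had over 27 counts in a library, which limits the precision there.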
